A study of Mus musculus with 6 samples.

Results

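The 36 genes described here carry the TGF-beta and BMP signals into and through the cell, and were chosen by name as rows of the deposited expression table, which holds 22355 genes in all. They comprise 5 ligands, 4 latent binding proteins, 8 receptors, 7 SMADs, 8 inhibitors and 4 target genes. Transcripts were measured by RNA sequencing in MEFs, mouse embryonic fibroblasts, a cultured connective tissue cell. The siControl group (3 libraries) was transfected with a negative control small interfering RNA (siRNA), and the siHk2 group (3 libraries) with an siRNA against Hk2, the gene of the glucose-phosphorylating enzyme hexokinase 2. All 6 libraries thus come from transfected cells; the labels give no untransfected group, mouse strain, siRNA dose or time after transfection. Control libraries are named by the numbers of their columns (4, 5 and 6), and siHk2 libraries likewise (1, 2 and 3).

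TGF-beta ligands are secreted in a latent complex, tethered to the extracellular matrix by latent TGF-beta binding proteins that bind fibrillin microfibrils. Released ligand brings together type II and type I receptor kinases, and the type I receptor phosphorylates SMAD2 and SMAD3 for TGF-beta and activin, or SMAD1 and SMAD5 for BMPs. Phosphorylated SMADs join SMAD4, enter the nucleus and bind DNA at elements built on the letters GTCT and its reverse complement, AGAC. Among the genes they induce are their own brakes (Smad6, Smad7, Skil), which makes the pathway a feedback loop; in fibroblasts it is best known for driving matrix production.

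Levels are in TPM, which corrects for transcript length and scales each library to the same total, so levels can be compared between genes. Sequencing depth is not recoverable from this unit and is unknown; the libraries detected 18419 to 18757 genes above 0. Hk2 fell by 63.2%, from 59.5 ± 2.78 to 21.9 ± 0.469 TPM (SD, n = 3). Of 10 fibroblast markers, Col1a1, Col1a2, Col3a1, Pdgfra, Pdgfrb and Vim were clearly present. Thy1, Dcn, Lum and Fbln1 stayed below 1 TPM in both groups. The summed list ran from 3330 to 3440 TPM in siControl and from 3047 to 3205 TPM in siHk2. Most of that sum is Vim, the 1 tested marker of 6 that passed the test, lower in siHk2 (mean 2365 against 1969 TPM). Without passing, the means of Col1a1 (105 and 160 TPM), Col1a2 (533 and 593 TPM), Col3a1 (183 and 210 TPM) and Pdgfrb (153 and 175 TPM) were higher in siHk2. That of Pdgfra (30.3 and 29.0 TPM) was lower. Adipocyte markers summed to 873 to 899 TPM in siControl against 1361 to 1419 TPM in siHk2, with Pparg, Lpl and Cidec higher and the defining markers Adipoq and Plin1 below 1 TPM. Chondrocyte markers summed to 21.1 to 21.5 and 28.8 to 32.8 TPM (Comp higher; Col2a1 and Acan below 1 TPM), and glial markers to 90.7 to 95.6 and 137 to 149 TPM (S100b higher; Sox10 below 1 TPM). Epithelial markers summed to 2.34 to 3.57 TPM in siControl against 6.25 to 9.01 TPM in siHk2 (Krt7 higher), with Epcam and Cdh1 below 1 TPM. No macrophage marker passed (39.05 to 64.29 and 39.19 to 43.03 TPM summed), nor any muscle marker (80.1 to 110.0 and 85.5 to 106 TPM). The part of these markers in the results below was not tested. The libraries are bulk samples, so fewer cells of a type and less RNA per cell cannot be told apart.

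Of the 36 members, 31 reached a mean of 1 TPM over the 6 libraries and were tested; the lowest of them averaged 5.14 TPM, and the 5 below the filter at most 0.793 TPM, with Inhba nearest the limit (mean 0.793 TPM, and above 1 TPM in 2 libraries). The group difference was tested on log2(TPM + 1) with limma across 13341 genes, two-sided, with Benjamini-Hochberg adjustment, and a call means an adjusted p under 0.05. The labels do not say whether the 3 libraries of each group were separate cultures; the p-values therefore rest on the spread among these libraries, part of which may be technical. In siHk2, 6 members rose and 2 fell, 8 of 31 (25.8%), where 13.6% of all tested genes were called in either direction, 6.15% higher and 7.42% lower. These shares are not matched for level, since all tested genes include those averaging from 1 TPM, below every tested member. With the filter raised to a mean of 5 TPM, 1991 genes were called against 1810, with 7 members higher and 2 lower. The part of level in the members' shares, here and below, was not tested. Tgfbr3, Tgfbr1 and Acvr2a (receptors), Ltbp3 (a latent binding protein), Smad6 and Skil (brakes) rose; the ligand Tgfb1 and the co-repressor Ski fell. All 8 changes were modest, between 0.279 and 0.628 in absolute log2 fold change. The median log2 fold change of the 31 members was 0.073, against 0.0066 over all tested genes, and 20 of the 31 were above 0, as were 6826 of the 13341 tested genes. The count of rises was 2 with no filter on low values, 3 without a mean-variance trend, 1 without siHk2 library 3, 2 without siHk2 library 2 or siControl library 4, and 3 without siHk2 library 1; the count of falls was 1 with no filter, without a trend, or without siControl library 4, siControl library 6, siHk2 library 2 or siHk2 library 3.

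**Figure D1:**
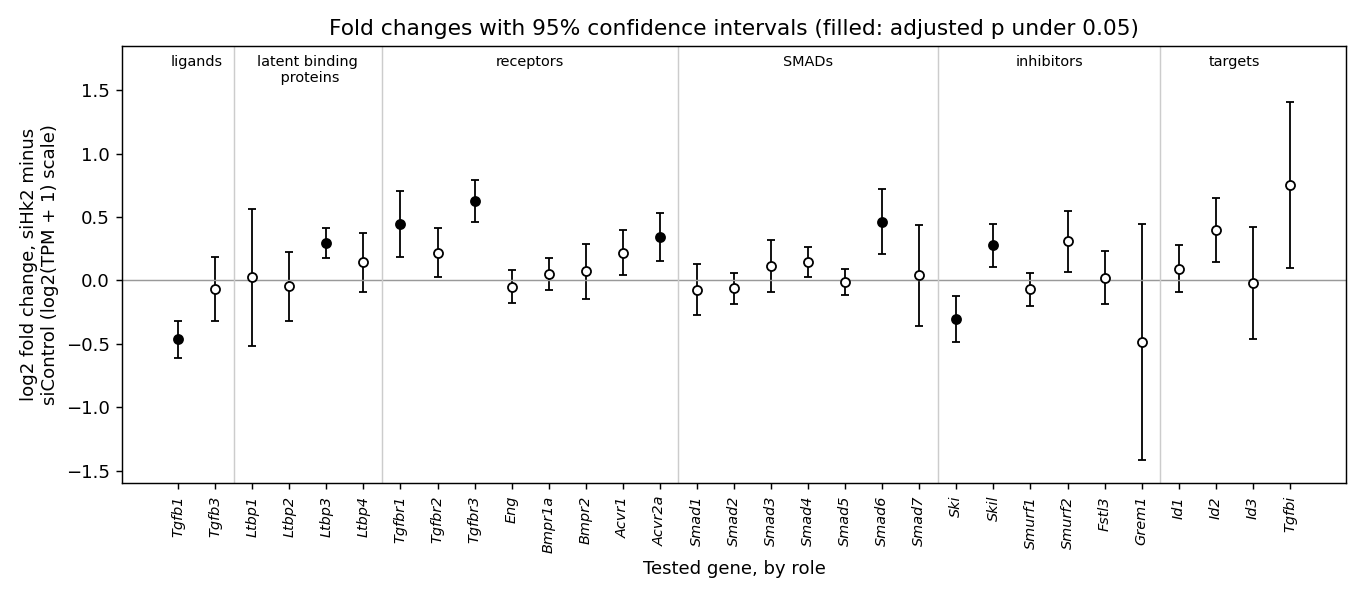
Log2 fold change (siHk2 minus siControl, on the log2(TPM + 1) scale) of the 31 tested members, by role, with 95% confidence intervals from limma; filled points have an adjusted p under 0.05. The 6 filled points above 0 are Ltbp3, Tgfbr1, Tgfbr3, Acvr2a, Smad6 and Skil, the 2 below are Tgfb1 and Ski, and the widest intervals belong to Grem1 and Tgfbi.

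**Figure D2:**
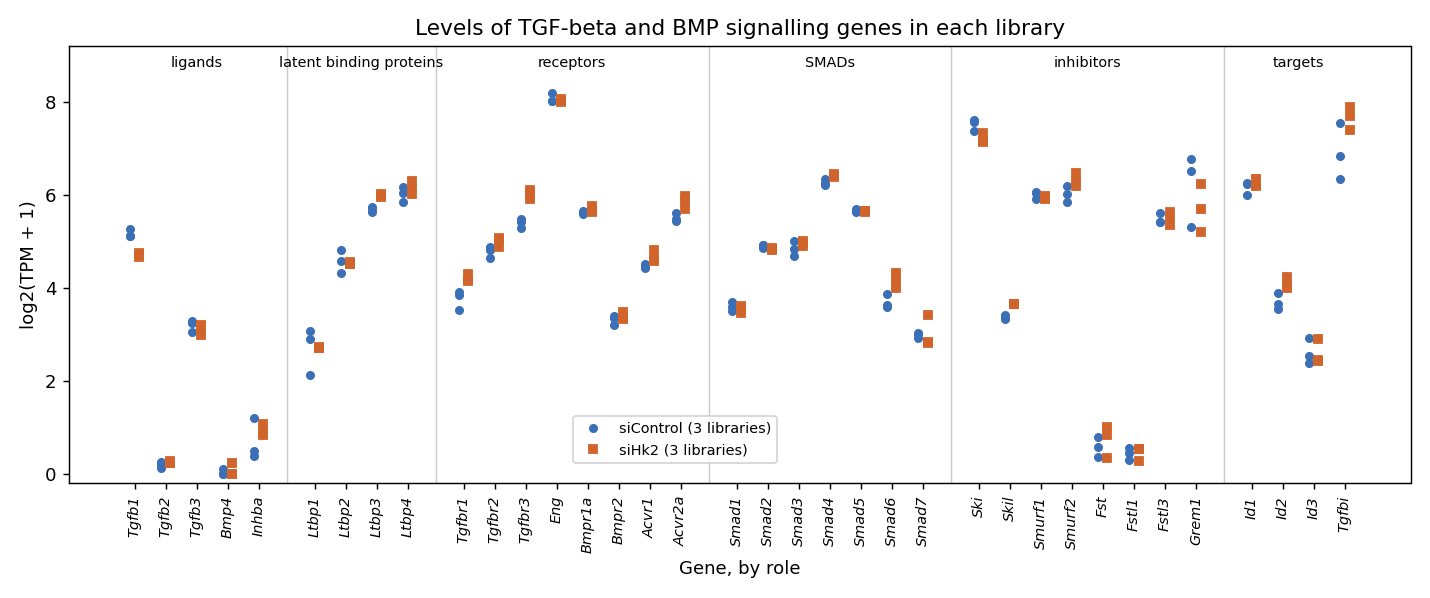
Level of each of the 36 members, as log2(TPM + 1), in the 3 siControl (circles) and 3 siHk2 (squares) libraries, by role. Eng, Ski and Tgfbi were the most abundant, and Tgfb2, Bmp4, Inhba, Fst and Fstl1 lay near the bottom of the scale in both groups.

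The 250 bases before and 50 after annotated start sites were taken from RefSeq (build GRCm38.p6, older than the GRCm39 of the deposited table) and matched 28 of the 36 members, with 34 windows. The full palindrome GTCTAGAC, in which a pair of SMAD half-sites abut, was found in 70 of 32851 such windows in the genome (0.213%). Of the 28 members with a window, Smad6 was the 1 that held it. Tgfb3, Tgfbr3, Smad2, Smad4, Smad7, Skil, Fst and Id1 had no window, so none of these letters were searched for in them. The short SMAD box CAGAC, searched on both strands, occurs in 49.6% of all windows and 47.1% of the members' windows. GGCGCC, the GC-rich letters found in BMP-responsive elements, occurs in 11.9% of all windows and 35.3% of the members', whose median GC content was 65.7% against 52.7%; the part of GC content in that share was not tested. Windows of Smad6, Ltbp3 and Tgfb1, called members of different roles, are shown 5′ to 3′ with any of these letters in capitals; a match is a description and not evidence of binding. The Smad6 window is chr9:64022010-64022309, minus strand, with the palindrome beginning 4 bases before the start site; the Ltbp3 window is chr19:5740650-5740949, plus strand, with CAGAC at 2 places; the Tgfb1 window is chr7:25686752-25687051, plus strand, and holds none of these letters.
Smad6: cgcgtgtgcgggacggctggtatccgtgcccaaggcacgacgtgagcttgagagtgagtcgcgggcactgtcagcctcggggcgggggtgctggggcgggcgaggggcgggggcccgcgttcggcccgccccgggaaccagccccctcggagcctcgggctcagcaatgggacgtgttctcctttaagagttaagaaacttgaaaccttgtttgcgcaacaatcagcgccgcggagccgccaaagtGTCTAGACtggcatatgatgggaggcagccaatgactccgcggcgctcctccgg
Ltbp3: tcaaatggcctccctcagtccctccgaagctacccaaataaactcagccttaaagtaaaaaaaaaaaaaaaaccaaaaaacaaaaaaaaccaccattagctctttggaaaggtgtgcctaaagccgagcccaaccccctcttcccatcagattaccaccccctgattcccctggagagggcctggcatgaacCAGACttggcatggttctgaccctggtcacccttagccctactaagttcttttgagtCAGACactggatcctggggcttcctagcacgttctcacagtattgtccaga
Tgfb1: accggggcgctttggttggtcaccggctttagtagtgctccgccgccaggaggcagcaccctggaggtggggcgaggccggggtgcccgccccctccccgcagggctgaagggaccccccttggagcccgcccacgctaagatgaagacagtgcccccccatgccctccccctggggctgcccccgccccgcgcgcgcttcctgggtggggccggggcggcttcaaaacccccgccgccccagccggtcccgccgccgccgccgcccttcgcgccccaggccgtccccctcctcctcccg

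Most ligand transcripts came from Tgfb1, which encodes the ligand most tied to fibroblast activation, and it fell. Tgfb1 (ENSMUSG00000002603, plus strand of chromosome 7, 25386427 to 25404502 in the deposited GRCm39 table) read 37.7, 33.8 and 33.9 TPM in siControl against 25.9, 25.1 and 24.4 TPM in siHk2. Every siHk2 library was below every siControl library, and the siHk2 values were close together. The mean fell by 28.4%, from 35.1 ± 2.25 to 25.1 ± 0.733 TPM (SD, n = 3), a log2 fold change -0.47 (standard error 0.064, adjusted p = 0.00624 in limma). Its call held in all 14 alternatives that were run. In the annotated 3′ UTR of Tgfb1 the letters GGAGACT do not occur; this 7-base sequence had been picked by an earlier scan of these same fold changes, and 15.2% of the tested genes with a 3′ UTR carry it.

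Tgfb3, the ligand required for palate fusion, read 7.28, 8.83 and 8.44 TPM in siControl against 6.92, 8.26 and 8.09 TPM in siHk2. Its groups overlapped and it did not pass, with a log2 fold change of -0.07 and a 95% confidence interval from -0.32 to 0.19 (adjusted p = 0.719 in limma). Tgfb3 overlaps Ttll5 (8.63 and 6.86 TPM) on the other strand, and the sources used here do not say if counting respected strand. Inhba, which encodes the activin A subunit, ran from 0.31 to 1.30 TPM in siControl and from 0.78 to 1.11 TPM in siHk2. Tgfb2 was at most 0.21 TPM in any library, and Bmp4, a ligand of mesoderm and bone development, was listed at 0 in 4 libraries. These 3 ligands were below the filter and were not tested. Summed over the 5 ligands, the level was 43.2 to 45.4 TPM in siControl against 33.8 to 34.6 TPM in siHk2.

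Of the latent TGF-beta binding proteins, Ltbp3 rose and the other 3 did not pass. Ltbp3 (ENSMUSG00000024940, chromosome 19, 5790932 to 5808560), whose protein binds latent TGF-beta and aids its secretion, read 51.1, 52.3 and 48.5 TPM in siControl against 60.8, 64.1 and 62.4 TPM in siHk2. The groups did not overlap; groups did not overlap for 45.2% of the tested members and for 35.7% of all tested genes. The rise was 23.2%, with a log2 fold change 0.30 (standard error 0.04999, adjusted p = 0.0117 in limma), and the call was lost without siHk2 library 2 or siHk2 library 3 (log2 fold change 0.27 to 0.32 over all alternatives, highest adjusted p = 0.0593 in limma).

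Ltbp4, the most abundant of the family, which guides elastic fibre assembly, read 64.8, 70.5 and 56.3 TPM in siControl against 63.7, 77.4 and 70.3 TPM in siHk2 (adjusted p = 0.382 in limma). Its groups overlapped. Ltbp2, which does not bind latent TGF-beta, ran from 19.1 to 27.2 TPM in siControl and from 21.9 to 22.4 TPM in siHk2, inside the control range. Ltbp1, the best studied carrier of latent TGF-beta1, ran from 3.37 to 7.38 TPM in siControl and from 5.53 to 5.66 TPM in siHk2. For both, the 3 siHk2 libraries lay within the control spread, and the 95% confidence interval of the log2 fold change of Ltbp1 (-0.52 to 0.56) is too wide to exclude a change as large as that of Ltbp3.

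Among the called members, the receptor Tgfbr3 had the largest rise. Of 8 tested receptors 3 rose, none fell in limma and 5 did not pass, where 6.15% of all tested genes rose and 7.42% fell. The receptors' median log2 fold change was 0.22, against 0.0066 over all tested genes. Their summed level was 454 to 495 TPM in siControl against 503 to 520 TPM in siHk2.

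Tgfbr3 (ENSMUSG00000029287, minus strand of chromosome 5, 107254436 to 107437495) encodes betaglycan, a membrane proteoglycan that presents TGF-beta to the signalling receptors, binds inhibin and, when shed, sequesters ligand. It read 41.5, 37.8 and 43.5 TPM in siControl against 59.5, 67.5 and 64.2 TPM in siHk2. The lowest siHk2 library was well above the highest siControl library. The mean rose by 55.8%, from 40.9 ± 2.91 to 63.8 ± 4.01 TPM (SD, n = 3), which is a log2 fold change 0.63 (standard error 0.071, adjusted p = 0.00345 in limma). The call held in all 14 alternatives, with log2 fold changes from 0.57 to 0.68. Its longest transcript shares 4.14% of its 50-base stretches with other genes, more than that of any other member.

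Tgfbr1 (ENSMUSG00000007613, chromosome 4, 47353222 to 47414931), the type I TGF-beta receptor kinase, read 10.6, 13.4 and 14.0 TPM in siControl against 18.8, 16.8 and 16.9 TPM in siHk2. The groups did not overlap, and siControl library 4 was the lowest of all. It rose by 38.5% with a log2 fold change 0.45 (standard error 0.111, adjusted p = 0.0385 in limma). Its call was lost in 6 of 14 alternatives: no filter, no trend, and without siControl library 4 or any of the 3 siHk2 libraries; over the alternatives the log2 fold change ran from 0.33 to 0.56 and the adjusted p in limma from 0.00556 to 0.116.

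Acvr2a (ENSMUSG00000052155, chromosome 2, 48704121 to 48793281), a type II receptor shared by activins and BMPs, read 47.8, 42.5 and 43.6 TPM in siControl against 62.2, 51.1 and 57.7 TPM in siHk2. The groups did not overlap. It rose by 27.7% with a log2 fold change 0.34 (standard error 0.082, adjusted p = 0.0346 in limma). The call was lost in 7 of 14 alternatives, including those without any single library except siHk2 library 2 (log2 fold change 0.28 to 0.42, highest adjusted p = 0.117 in limma). Acvr2a overlaps Orc4 on the other strand (26.1 TPM in siControl against 29.4 TPM in siHk2).

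Tgfbr2, the type II receptor that binds TGF-beta, read 28.3, 27.1 and 23.9 TPM in siControl against 28.4, 32.5 and 31.8 TPM in siHk2. The siHk2 libraries were all higher, by a narrow margin, and the difference did not pass (log2 fold change 0.22, 95% confidence interval 0.024 to 0.41, adjusted p = 0.123 in limma). Acvr1, a type I receptor for BMPs and activins, read 21.70, 20.39 and 20.82 TPM in siControl against 27.09, 23.02 and 23.72 TPM in siHk2; its groups did not overlap and it did not pass either (adjusted p = 0.0981 in limma). Neither of these is shown to differ from the called receptors, since that difference was not tested.

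Eng, which encodes endoglin, a co-receptor best known from endothelium, was the most abundant member at 289, 256 and 259 TPM in siControl against 266, 253 and 257 TPM in siHk2. Its groups overlapped and the 95% confidence interval of its log2 fold change was -0.18 to 0.079. The 7 endothelial markers in the table (Pecam1, Cdh5, Kdr, Tek, Tie1, Emcn and Vwf) were each below 1 TPM in both groups, with a sum of at most 1.14 TPM in any library. Eng overlaps Fpgs on the other strand (87.2 and 77.8 TPM). Bmpr1a, a type I BMP receptor, read 47.2, 48.7 and 49.5 TPM in siControl against 49.2, 48.4 and 53.4 TPM in siHk2 (adjusted p = 0.568 in limma). Bmpr2, the type II BMP receptor, lay between 8.14 and 10.1 TPM in every library (adjusted p = 0.648 in limma). Levels of both BMP receptors overlapped between the groups.

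**Figure D3:**
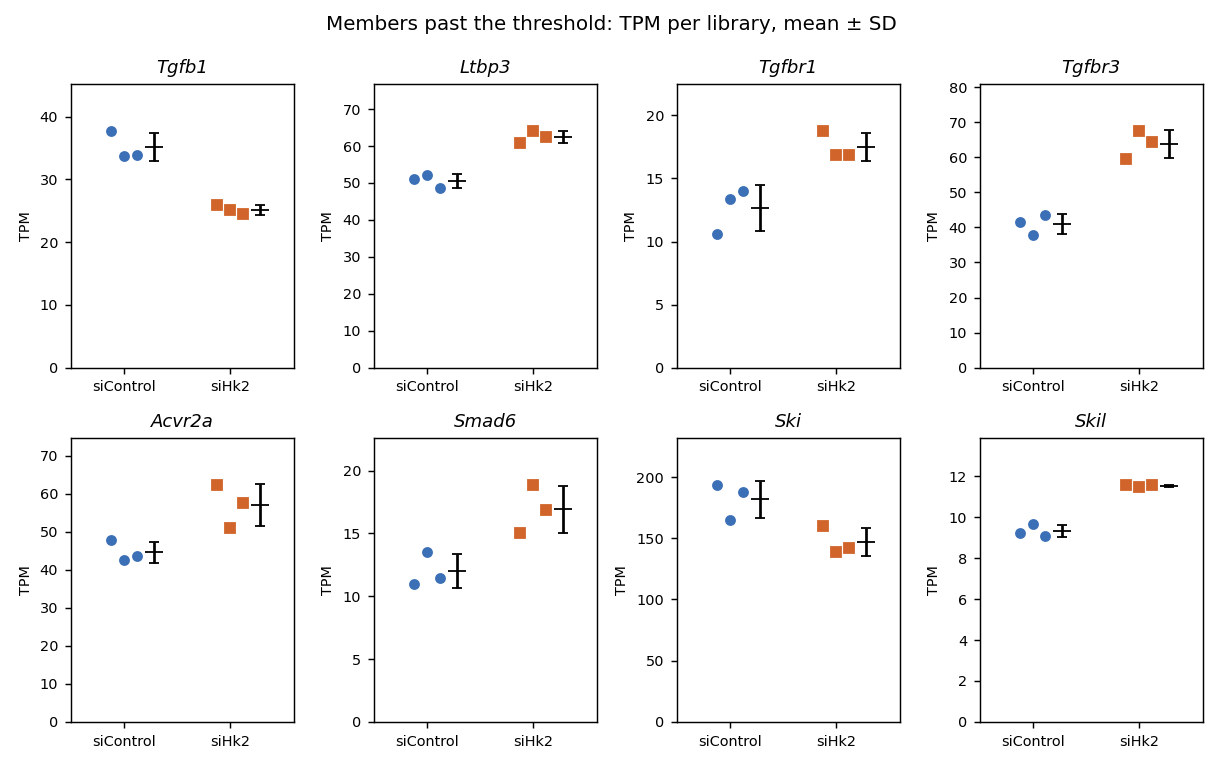
TPM in each of the 3 siControl (circles) and 3 siHk2 (squares) libraries for the 8 called members, with the group mean ± SD in black and axes starting at 0. The groups do not overlap in any of the 8 panels; Tgfb1 and Ski are lower in siHk2, the other 6 higher, and Tgfbr3 is furthest apart.

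The SMADs that carry the signal did not pass, while the inhibitory Smad6 rose. Of 7 tested SMADs 1 rose and 6 did not pass, where 6.15% of all tested genes rose; their median log2 fold change was 0.039. Smad6 (ENSMUSG00000036867, minus strand of chromosome 9, 63860358 to 63929341) encodes an inhibitory SMAD that is induced by BMPs and blocks their receptors' signal, and its promoter window with the SMAD palindrome is shown above. It read 10.97, 13.55 and 11.44 TPM in siControl against 15.06, 18.83 and 16.82 TPM in siHk2. Every siHk2 library was higher than every siControl library. The rise was 41.0%, with a log2 fold change 0.46 (standard error 0.110, adjusted p = 0.0338 in limma); the call was lost with no filter, with no trend, and without siControl library 4, siControl library 6, siHk2 library 2 or siHk2 library 3 (log2 fold change 0.39 to 0.55, highest adjusted p = 0.118 in limma).

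Smad7, the inhibitory SMAD of the TGF-beta arm, read 7.19, 7.00 and 6.57 TPM in siControl against 9.75, 6.05 and 6.10 TPM in siHk2. Library 1 of siHk2 was the highest and the other two siHk2 libraries were the lowest, so the groups overlapped (adjusted p = 0.902 in limma). Smad4, the partner of all receptor-activated SMADs and the most abundant SMAD, read 72.9, 74.8 and 80.2 TPM in siControl against 83.5, 82.8 and 86.0 TPM in siHk2. Its groups did not overlap, at a log2 fold change of 0.15 that did not pass (adjusted p = 0.0988 in limma); it passed with library weights and without siControl library 6, with a lowest adjusted p of 0.0133 in limma.

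Smad5, a BMP SMAD, read 49.2, 48.7 and 50.4 TPM in siControl against 49.2, 48.5 and 49.5 TPM in siHk2. All 6 values lay close together, and the 95% confidence interval of its log2 fold change was -0.11 to 0.093, inside the smallest change of a called member (0.279). The TGF-beta SMADs Smad2 (27.1 to 29.3 TPM over the 6 libraries) and Smad3 (24.5 to 31.1 TPM) and the BMP SMAD Smad1 (10.04 to 12.04 TPM) did not pass either, with adjusted p-values in limma of 0.481, 0.437 and 0.622. Smad2 was lower in every siHk2 library by a small margin (28.8 ± 0.744 against 27.6 ± 0.397 TPM, SD, n = 3). Summed SMAD levels were 208 to 216 TPM in siControl against 224 to 227 TPM in siHk2.

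The related co-repressors Ski and Skil, which bind SMAD complexes on DNA and silence them, moved in opposite directions. Ski (ENSMUSG00000029050, minus strand of chromosome 4, 155238532 to 155307049) read 193, 165 and 188 TPM in siControl against 160, 139 and 142 TPM in siHk2. The groups did not overlap, although siControl library 5 came near siHk2 library 1. It fell by 19.1% with a log2 fold change -0.30 (standard error 0.078, adjusted p = 0.0437 in limma); the call was lost with no filter, with no trend, and without siControl library 4, siControl library 6, siHk2 library 2 or siHk2 library 3 (log2 fold change -0.38 to -0.26, highest adjusted p = 0.144 in limma). Ski carries the scanned sequence GGAGACT in its 3′ UTR, with 2 occurrences in the 3269 bases of the GENCODE M21 transcript. That sequence was picked from these same fold changes, so the match is a description, and its part in the fall was not tested. The occurrence at base 323 is shown here with the match in capitals because Ski is the called member that holds it.
Ski: aaaaccagtaaGGAGACTtgatattcaga

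Among the members, 8 of 31 carry GGAGACT in an annotated 3′ UTR (25.8%, against 15.2% of tested genes with a UTR): Ltbp1, Tgfbr2, Eng, Smad1, Smad2, Smad5, Ski and Smurf1. The part of 3′ UTR length in that share was not tested. Since the sequence was picked from these same fold changes, the fold changes of its carriers are not compared with those of other genes.

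Skil (ENSMUSG00000027660, chromosome 3, 31149207 to 31176726), which encodes SnoN and is itself a direct TGF-beta target, read 9.22, 9.69 and 9.10 TPM in siControl against 11.6, 11.5 and 11.6 TPM in siHk2. The siHk2 values were nearly identical and all above the siControl range. It rose by 23.6% with a log2 fold change 0.28 (standard error 0.073, adjusted p = 0.0448 in limma). The call was lost with no filter and without any of the 6 libraries (highest adjusted p = 0.138 in limma), while the log2 fold change stayed between 0.26 and 0.30. On the TPM scale Ski remained far more abundant than Skil in both groups.

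The ubiquitin ligases Smurf1 and Smurf2 mark SMADs and receptors for degradation. Smurf2 read 63.6, 56.4 and 71.7 TPM in siControl against 87.9, 72.2 and 77.7 TPM in siHk2. The groups just failed to overlap and the difference did not pass (log2 fold change 0.31, adjusted p = 0.0867 in limma); it passed with library weights and without siControl library 6 (lowest adjusted p = 0.0212 in limma). Smurf1 lay between 58.9 and 65.9 TPM in every library, with overlapping groups (adjusted p = 0.428 in limma).

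Of the secreted antagonists, Fstl3, which binds activin and myostatin, read 48.2, 41.6 and 41.8 TPM in siControl against 48.8, 39.8 and 45.2 TPM in siHk2. Its groups overlapped throughout. Grem1, which encodes the BMP antagonist gremlin, read 89.7, 38.5 and 107 TPM in siControl against 74.0, 35.7 and 50.5 TPM in siHk2. Its range within each group was wider than the difference between the group means. The log2 fold change was -0.48 (95% confidence interval -1.41 to 0.45, adjusted p = 0.462 in limma). That interval holds both 0 and the fold change of Tgfb1. Fst, the activin antagonist follistatin, reached at most 1.02 TPM and Fstl1, a secreted follistatin-like glycoprotein, at most 0.47 TPM in any library; they were not tested.

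None of the 4 target genes passed the test in limma, and 2 of them, Id2 and Tgfbi, had an unadjusted p under 0.05. Id2, a dominant-negative helix-loop-helix factor induced by BMPs, read 13.74, 10.73 and 11.63 TPM in siControl against 17.74, 15.70 and 14.96 TPM in siHk2. The siHk2 libraries were all higher. Its log2 fold change was 0.40 (SE 0.107) and its adjusted p = 0.0503 in limma missed the threshold by little; with the filter raised to a mean of 5 TPM it passed (adjusted p = 0.0408 in limma).

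Id1, the most abundant of the Id genes, read 75.6, 63.2 and 73.7 TPM in siControl against 80.5, 73.5 and 72.5 TPM in siHk2 (adjusted p = 0.470 in limma). Id3 ran from 4.20 to 6.58 TPM in siControl and from 4.41 to 6.45 TPM in siHk2 (adjusted p = 0.961 in limma). Groups overlapped for both, and whether Id2 differed from them was not tested. Tgfbi, an extracellular matrix protein named for its induction by TGF-beta, read 113, 185 and 80.1 TPM in siControl against 167, 236 and 207 TPM in siHk2. Control library 5 lay inside the siHk2 range. Its mean was higher in siHk2 (126 ± 53.8 and 203 ± 34.5 TPM, SD, n = 3) without passing (log2 fold change 0.75, SE 0.279, adjusted p = 0.116 in limma); it passed with library weights and without siControl library 5, at which its log2 fold change was 1.07.

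Grem1 and Tgfbi varied within both groups along the axis that ranked second in a principal component analysis of the tested genes. That component held 25.7% of the variance and placed siControl library 5 (-17.8) and siHk2 library 2 (-13.7) at the low end and siControl library 6 (17.5) and siHk2 library 1 (11.97) at the high end. With libraries ordered by it, Grem1 and Smurf2 ran upward and Ltbp3, Ltbp4, Smad3 and Tgfbi ran downward in both groups. These are 6 of 31 members, a share near the 17.3% of all tested genes that followed the order or its reverse. Following this axis is therefore not particular to the members. What the axis stands for was not tested.

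**Figure D4:**
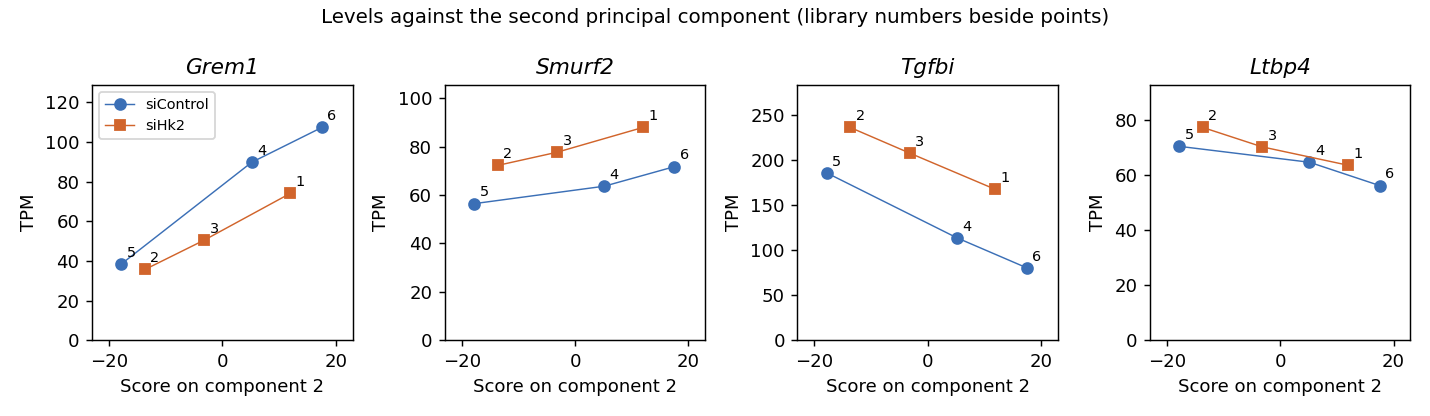
TPM of Grem1, Smurf2, Tgfbi and Ltbp4 (axes from 0) against the score of each library on the second principal component, with lines joining the 3 siControl (circles) and the 3 siHk2 (squares) libraries. Within both groups Grem1 and Smurf2 run upward and Tgfbi and Ltbp4 downward along the axis; siControl library 5 and siHk2 library 2 lie at its low end.

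Beyond the members, 126 further genes of the pathway were listed, of which 78 reached the filter. In limma 5 of them rose (6.41%) and none fell, with 24 at an unadjusted p under 0.05. Of all tested genes 6.15% were called higher, 7.42% lower and 13.6% in either direction. The median log2 fold change of the 78 genes was 0.049. The count of rises was 2 without siHk2 library 3, 8 with the filter raised to a mean of 5 TPM and 19 with library weights. The genes that rose were Bmp1, Twsg1, Fbn1, Hipk2 and Wwp1.

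Bmp1, which despite its name encodes a metalloprotease that processes procollagens, chordin and latent TGF-beta binding proteins, read 30.1, 28.4 and 29.4 TPM in siControl against 41.6, 43.3 and 42.4 TPM in siHk2. Fbn1, which encodes fibrillin-1, the microfibril protein to which latent TGF-beta complexes attach, read 43.4, 40.8 and 41.3 TPM in siControl against 58.0, 60.9 and 60.3 TPM in siHk2. Both were tight within groups and wide apart between them. Bmp1 rose by 44.8% (log2 fold change 0.52, SE 0.051) and Fbn1 by 42.8% (log2 fold change 0.50, SE 0.049), each with adjusted p = 0.00229 in limma.

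Twsg1, a secreted modulator of BMP ligands, rose by 25.6%, from 75.0 ± 4.599 to 94.3 ± 1.93 TPM (SD, n = 3, adjusted p = 0.0116 in limma). Hipk2, a nuclear kinase that binds SMADs and Ski, rose by 53.8%, from 18.1 ± 2.42 to 27.9 ± 2.11 TPM (adjusted p = 0.0126 in limma). Wwp1, a ubiquitin ligase related to the Smurfs, rose by 19.3%, from 28.4 ± 0.840 to 33.9 ± 2.32 TPM, close to the threshold (adjusted p = 0.0493 in limma). None of these 5 genes overlapped between the groups.

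**Figure D5:**
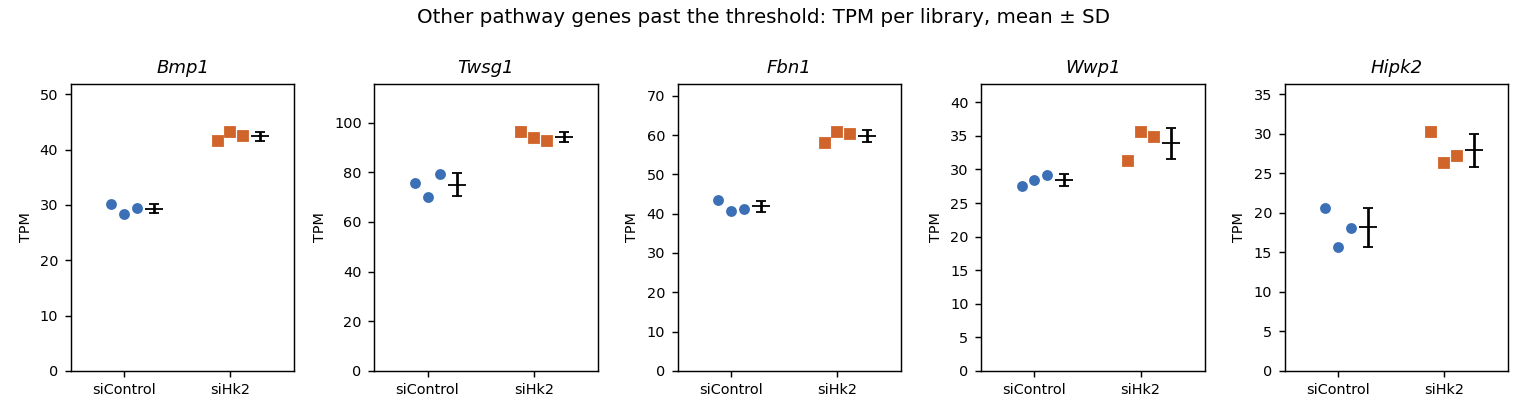
TPM in each of the 3 siControl (circles) and 3 siHk2 (squares) libraries for the 5 pathway genes outside the member list that passed the test, with the group mean ± SD in black and axes starting at 0. All 5 are higher in every siHk2 library than in any siControl library.

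By list, 2 of 8 tested genes listed as ligands and antagonists, 1 of 12 genes of latent TGF-beta activation and 2 of 23 SMAD cofactors and regulators rose, beside the 6.15% of all tested genes. The 2 of the first list were Twsg1 and Bmp1, a metalloprotease that was listed there by its name. None of the 13 further receptors and co-receptors passed in limma; their median log2 fold change was -0.076. Listed TGF-beta target genes numbered 28, of which 18 were tested and 1 rose, the member Skil; none fell, the median was 0.12, and 5 of the 18 showed no overlap of the groups, all higher in siHk2, where 17.6% of all tested genes were higher without overlap. Several targets well known from fibroblasts were near 0: Ccn2 stood at 0.103 TPM in siControl against 0.14 TPM in siHk2, Tagln at 0.543 and 0.657 TPM, Pmepa1 at 0.0133 and 0.0267 TPM, and Postn, Tnc, Lox and Cnn1 were likewise below the filter. Col1a1, a chain of type I collagen, went from 105 ± 30.8 to 160 ± 32.9 TPM (SD, n = 3), with overlapping groups and no call (adjusted p = 0.106 in limma). Of 16 tested BMP target genes 1 rose, the member Smad6, and none fell; the median was 0.016, and the groups did not overlap for 3 that were higher and 3 that were lower (17.6% and 18.1% of all tested genes), the latter being Bambi, Dlx3 and Sp7, none of which passed.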

How the data were processed

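RNA sequencing of 6 MEF libraries (3 siControl, 3 siHk2) was deposited by the authors as 1 table of TPM, rounded to 2 decimals; every column sums to 1000000. Per the labels' protocols, poly(A) RNA was enriched with oligo(dT), fragmented, reverse transcribed with random hexamers and sequenced on a BGI platform. The submitters' processing notes name the build GRCm39 (mm39); the sources used here give no aligner, counter or annotation release. TPM keeps no depth, so no counting interval could be given, and its fixed total means that abundant genes shift the others. Columns of siHk2 were matched to samples by title. Column numbers of siControl occur in none of its titles, so these columns served as unnumbered replicates of that group.

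Genes averaging 1 TPM or more were fitted as log2(TPM + 1) in limma 3.58.1 (R 4.3.3) with a mean-variance trend and no covariate, two-sided, with Benjamini-Hochberg adjustment at 0.05 over all tested genes; the pseudocount of 1 understates changes of low genes. Percent changes are ratios of mean TPM. On simulated data with 13341 genes made from the means and spreads of this comparison, the fit recovered 83% of 100 genes shifted by 1 and 53% of 100 shifted by 0.5 on the log2 scale, with 4.90% false calls. Every member could be named; values per library were due for called members and for the 2 members of each role with the highest mean, and were added for others after their values were seen. Of other pathway genes, up to 4 called genes per list with the smallest p were named; Col1a1, Bambi, Dlx3, Sp7 and the genes below the filter were named after their values were seen. The members and lists were chosen with earlier results of these data known. Promoter windows came from RefSeq, and transcripts and 3′ UTRs from GENCODE M21 (GRCm38), read with Biopython 1.88 and pandas 2.3.3 in Python 3.11.15; windows of 50 bases were searched in all transcripts. Figures were drawn with matplotlib 3.10.9. Alternatives were other pseudocounts (0.1, 0.5), other filters (none, a mean of 5 TPM), no trend, library weights, 2 other scalings and leaving out each library.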

Additional observations from a re-analysis of the deposited data

How the results depend on the processing

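The tests are limited by 3 libraries per group and by an unknown depth. Of 434 comparisons of a member's fold change with an alternative, 376 kept both the direction and the side of the threshold, 34 lost the call, 7 gained it and 17 changed sign. The 23 members not called had no call to lose. The 34 losses fell on Ltbp3 (2 of 14 alternatives), Tgfbr1 (6), Acvr2a (7), Smad6 (6), Ski (6) and Skil (7). The 17 changes of sign belong to 8 members that passed in no setting: with library weights the log2 fold change was 0.043 for Tgfb3, -0.086 for Ltbp1, -0.074 for Smad7, -0.057 for Fstl3 and 0.13 for Id3. With 1 library left out it ran from -0.14 to 0.0024 for Tgfb3, -0.26 to 0.21 for Ltbp1, -0.17 to 0.072 for Ltbp2, -0.081 to 0.0045 for Eng, -0.022 to 0.0032 for Smad5, -0.16 to 0.14 for Smad7, -0.044 to 0.099 for Fstl3 and -0.17 to 0.14 for Id3. Tgfb1 and Tgfbr3 kept their calls in all 14 alternatives. Without each library in turn, the genes called numbered 504 to 2126 (1810 with all libraries), the members higher 1 to 5, the members lower 1 to 2, the other pathway genes higher 2 to 7 and those lower 0 to 2; the lowest count of all genes called was without siHk2 library 3 (504), followed by siControl library 4 (664), siHk2 library 2 (714) and siHk2 library 1 (869). With no filter on low values 1186 genes, 2 members higher and 1 lower were called; with no mean-variance trend 1057 genes, 3 members higher and 1 lower; with library weights 4040 genes, and 19 other pathway genes higher and 9 lower; with the filter raised to a mean of 5 TPM, 8 other pathway genes higher and 2 lower; and with libraries centred on their median, 1 other pathway gene lower. The cause was not tested. No paired analysis was possible because the numbers on the siControl columns are not those of the sample titles.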
